A study of Mus musculus with 10 samples.

Results

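The genes described here were 50 genes of DNA replication and of the passage from G1 into S phase, taken by symbol from a list of replication proteins, nucleotide enzymes, E2F factors, cyclins, cyclin-dependent kinases and kinase inhibitors. All 50 were found among the 17864 genes of the count table, and all 50 were among the 14816 genes that passed the filter on low counts. By role, 36 belong to the replication machinery and 14 to G1/S control. The question was how the levels of these genes compared between 4T1 tumors made from cells with a guide RNA against Wwtr1, the gene of the transcriptional coactivator TAZ (sgTaz, 5 tumors), and from cells with a control guide RNA (sgCon, 5 tumors). 4T1 is a mouse line of triple-negative mammary carcinoma. Cells of both groups also carried Cas9, the nuclease that a guide RNA directs to its target. The study describes injection into mammary fat pad number 4 of female SCID or BALB/c mice aged 6 to 8 weeks, and the strain behind these libraries, the age of the mice at harvest and whether the cells were 1 clone are not given in the sources used here. RNA came from whole tumors, so each value sums tumor cells and host cells, and fewer cells of a type cannot be told apart from less RNA per cell.

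DNA replication begins in G1, when the origin recognition complex, Cdc6 and Cdt1 load the Mcm2 to Mcm7 helicase onto origins. The helicase is switched on in S phase with Cdc45 and the GINS proteins, and polymerases held by the sliding clamp Pcna then copy the strands. Entry into S phase is driven by cyclin D with Cdk4 or Cdk6 and by cyclin E with Cdk2, which release E2F factors from the retinoblastoma protein, and E2F factors in turn act on the promoters of most replication genes. In a growing tumor the transcripts of replication genes come mainly from dividing cells of any type, tumor or host.

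Promoters are shown first, since they are where E2F factors act on these genes. RefSeq promoters (build GRCm38.p6, 250 bases before to 50 bases after the transcription start) were matched for 41 of the 50 genes by symbol, with 50 promoters in all. Letters that resemble an E2F binding site (TTCGCGC, the variant with TTGGCGC and that with TTCCCGC, on either strand) were in the promoters of 24 of the 41 genes. Counted by promoter they were in 54.0% of those of the 50 genes, 8.07% of all RefSeq promoters and 13.5% of the promoters of genes that passed the filter. The CCAAT letters were in 54.0% of the promoters of the 50 genes, 37.4% of all promoters and 37.2% of those of genes that passed the filter. Letters like the CHR element of mitotic genes (TTTGAA, or in its other form TTCGAA, on either strand) were in 16%. That share was below the 19.2% of all promoters and above the 14.1% of the promoters of genes that passed the filter. Below are the 250 bases before the start of 5 genes with E2F-type letters, a pair of helicase subunits, a polymerase subunit, a nucleotide enzyme and an E2F factor, and of Ccnd3, which had none. Each is written 5′ to 3′ on the strand of the gene, with the E2F-type letters in capitals. Ccnd3 had 2 promoters, neither with these letters, and the window printed is that of the upstream one.
Mcm6, chr1:128359706-128359955, minus strand: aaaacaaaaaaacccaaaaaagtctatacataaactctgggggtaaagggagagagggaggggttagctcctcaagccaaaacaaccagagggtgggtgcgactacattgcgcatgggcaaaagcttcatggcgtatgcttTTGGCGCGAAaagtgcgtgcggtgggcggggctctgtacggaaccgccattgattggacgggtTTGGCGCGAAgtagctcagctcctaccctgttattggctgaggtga
Mcm5, chr8:75109259-75109508, plus strand: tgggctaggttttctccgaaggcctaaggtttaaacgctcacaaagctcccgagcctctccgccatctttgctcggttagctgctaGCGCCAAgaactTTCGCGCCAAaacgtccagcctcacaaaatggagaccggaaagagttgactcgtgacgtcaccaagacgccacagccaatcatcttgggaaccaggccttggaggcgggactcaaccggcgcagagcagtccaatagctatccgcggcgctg
Pola1, chrX:93632156-93632405, minus strand: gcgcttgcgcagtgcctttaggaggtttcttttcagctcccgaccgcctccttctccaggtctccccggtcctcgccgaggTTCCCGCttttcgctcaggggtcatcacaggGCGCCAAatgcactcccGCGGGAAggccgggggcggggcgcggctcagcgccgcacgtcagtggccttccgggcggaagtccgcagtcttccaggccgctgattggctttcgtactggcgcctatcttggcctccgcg
Rrm1, chr7:102441445-102441694, plus strand: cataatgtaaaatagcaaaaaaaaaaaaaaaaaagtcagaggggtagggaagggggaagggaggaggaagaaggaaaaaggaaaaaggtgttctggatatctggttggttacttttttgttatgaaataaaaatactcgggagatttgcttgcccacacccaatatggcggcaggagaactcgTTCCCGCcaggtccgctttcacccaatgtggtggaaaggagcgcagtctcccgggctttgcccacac
E2f8, chr7:48881597-48881846, minus strand: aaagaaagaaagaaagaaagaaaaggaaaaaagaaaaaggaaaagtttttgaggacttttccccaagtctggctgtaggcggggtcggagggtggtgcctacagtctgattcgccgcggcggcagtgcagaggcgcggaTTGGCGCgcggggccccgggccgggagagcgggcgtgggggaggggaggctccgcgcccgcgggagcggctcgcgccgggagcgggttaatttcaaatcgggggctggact
Ccnd3, chr17:47504801-47505050, plus strand: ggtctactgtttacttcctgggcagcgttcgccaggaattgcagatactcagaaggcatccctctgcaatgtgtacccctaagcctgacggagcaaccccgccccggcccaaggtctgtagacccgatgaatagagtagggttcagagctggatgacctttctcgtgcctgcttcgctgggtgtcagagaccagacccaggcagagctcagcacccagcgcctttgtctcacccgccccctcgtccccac
In Mcm6 each stretch of capitals holds 2 overlapping matches on opposite strands, which begin 109, 106, 46 and 43 bases before the start. The longer stretch of Mcm5 also holds 2. The match of Rrm1 lies 67 bases before the start and that of E2f8 111 bases before it. A match of letters is a description and not a bound site.

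Total counts were 14753922 to 19595821 in sgCon tumors and 12185383 to 18395558 in sgTaz tumors, and the lowest count of any of the 50 genes in any tumor was 84, for Ccne1. Values below are TMM-normalized CPM, the read count of a gene scaled to an equal effective library size,, given in the order of tumors 1 to 5 of each group, and differences are on the log2 scale, sgTaz minus sgCon, from edgeR. Wwtr1 itself was at 192.2, 181.3, 114.5, 171.4 and 156.1 CPM in sgCon tumors and 86.6, 103.7, 109.9, 139.0 and 101.6 CPM in sgTaz tumors. It was lower by 0.59 ± 0.151 (standard error), with an edgeR adjusted p of 0.096 and 0.013 to 0.233 in the alternatives, and sgTaz tumor 4 stood above sgCon tumor 3. Epithelial markers, which 4T1 cells carry, were detected in every tumor for all 10 genes of the list. Of the sgCon tumors, tumor 3 stood furthest apart, with the highest summed B cell markers, 988.3 CPM against 72.9 to 455.5 CPM in the other sgCon tumors.

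None of the 50 genes passed an edgeR adjusted p of 0.05, the smallest being 0.096, and among all genes tested 1 gene did (0.00675%, higher in sgTaz tumors). At an unadjusted p below 0.05, 10 of the 50 genes were higher in sgTaz tumors (20%, against 9.86% of all genes tested) and 4 were lower (8.0%, against 11.9%). Those higher were Cdc6, Mcm7, Cdc45, Pole, Rrm1, Tyms, E2f8, Ccne2, Ccnd1 and Cdk6, and those lower were E2f2, Cdk2, Ccnd2 and Ccnd3. The machinery held 6 of the higher genes (16.7% of its 36, against 9.86% of all genes tested) and 0 of the lower ones (against 11.9%). G1/S control held 4 of each among its 14 (28.6% each, against the same shares). With limma-voom at an unadjusted p the machinery held 4 higher (11.1%, against 14.0% of all genes tested). It held 3 lower, Orc6, Rfc2 and Rfc3 (8.33%, against 16.8%). G1/S control held 2 higher (14.3%) and 4 lower (28.6%) with limma-voom. DESeq2 at an adjusted p below 0.05 called Pole and Cdk6 higher (3.6% of all genes tested) and Ccnd2 lower (3.62%). Limma-voom with sample weights called Pole, Rrm1 and Cdk6 higher (against 4.63% of all genes tested) and Ccnd3 lower (against 5.8%). At an unadjusted p it called 6 of the 50 higher (against 14.0% of all genes tested) and 7 lower (against 16.8%), a smaller share than that of all genes tested in both directions. At an adjusted p below 0.05 the 2 tools thus shared Pole and Cdk6 among these genes.

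The differences were small. In 40 of the 50 genes the log2 difference was under 0.25 in size (80%, against 64.1% of all genes tested), and in 2 genes it was above 0.5. Its standard error was 0.0685 to 0.265, with a median of 0.102. The median difference was 0.05 over the 50 genes, 0.07 over the machinery, -0.04 over G1/S control and -0.02 over all genes tested, and 28 of the 50 genes lay above 0 (56.0%, against 47.0%). Without sgTaz tumor 1 the median over the 50 genes was -0.0034. The groups did not overlap in Pole, Ccne2 and Cdk6, which were higher in sgTaz tumors (6.0%, against 2.44% of all genes tested in that direction), and 0 genes were lower without overlap (against 2.13%). With 1 tumor fewer an overlap is less likely for any gene. Without sgCon tumor 1 there were 8 of the 50 genes with no overlap in either direction (against 8.18% of all genes tested), without sgCon tumor 2 there were 5 (against 6.65%) and without sgTaz tumor 2 there were 5 (against 10.8%). Of the 14 genes past the unadjusted threshold, 6 stayed past it whichever tumor was left out, namely Pole, Rrm1, E2f8, Ccnd2, Ccnd3 and Cdk6. How many of all genes tested stayed past it in every such fit was not counted. The count of higher genes was 5 without sgTaz tumor 1 (against 8.05% of all genes tested), 6 without sgCon tumor 4 (9.76%) and 6 without sgCon tumor 5 (7.05%). That of lower genes was 2 without sgTaz tumor 3 (8.46%) or without sgTaz tumor 4 (8.54%).

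**Figure D1:**
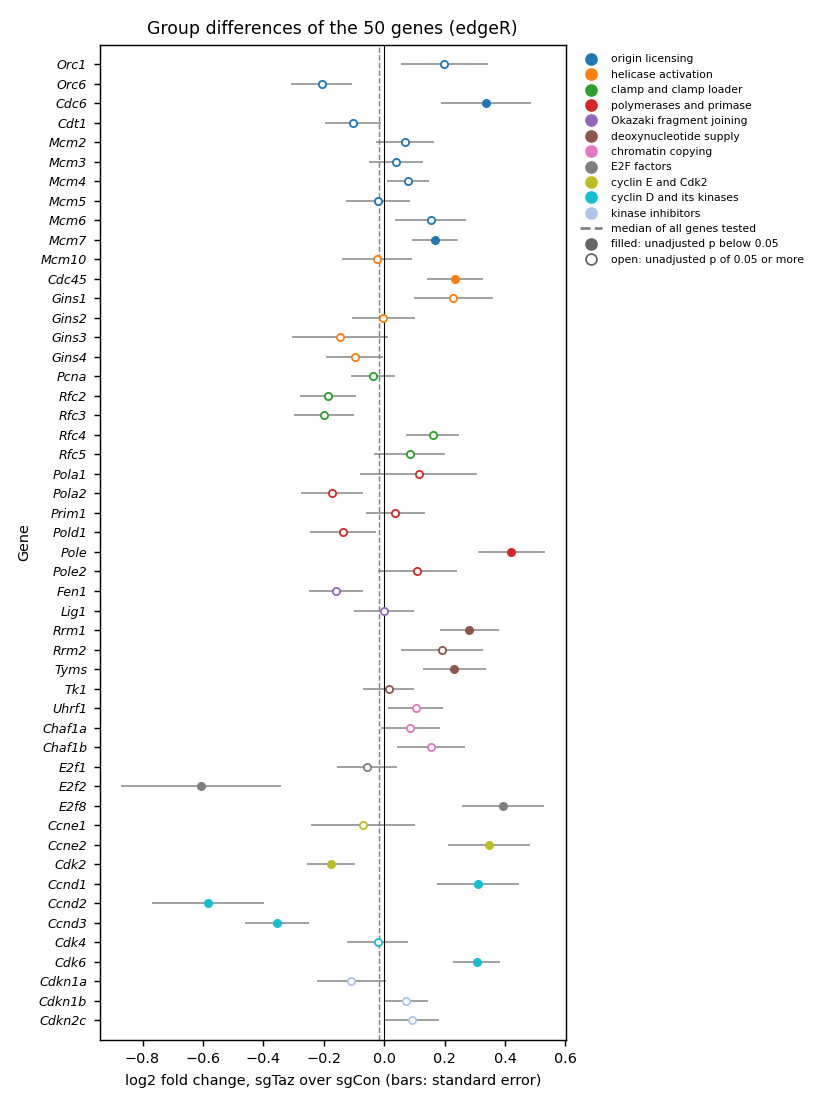
Log2 difference of each of the 50 genes, sgTaz minus sgCon (horizontal axis), with its edgeR standard error as a bar, colored by role and filled where the unadjusted p was below 0.05; the dashed line is the median of all genes tested. The filled points to the left of 0 are E2f2, Cdk2, Ccnd2 and Ccnd3, all of G1/S control, while 6 of the 10 filled points to the right belong to the machinery.

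Origin licensing was represented by 10 genes, of which Cdc6 and Mcm7 passed the unadjusted threshold, both higher in sgTaz tumors, and 0 were lower. Cdc6, the ATPase that loads the helicase, was at 22.9, 24.4, 20.2, 19.98 and 22.2 CPM in sgCon tumors and 40.0, 24.4, 24.9, 25.4 and 23.8 CPM in sgTaz tumors. The value of sgTaz tumor 1 stood far above the other 4 of its group, which lay at or near the top of the sgCon range. Cdc6 was higher by 0.34 ± 0.149 (edgeR p 0.0435, adjusted p 0.216), and without sgTaz tumor 1 the difference was 0.17, with an unadjusted p of 0.0977. It also missed 0.05 without any of sgCon tumors 1, 3, 4 and 5, with a lower p than that.

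The 6 helicase subunits lay close together. Mcm7 was at 136.4, 108.9, 123.9, 120.5 and 117.5 CPM in sgCon tumors and 150.5, 131.8, 131.0, 141.9 and 127.3 CPM in sgTaz tumors, a difference of 0.17 ± 0.0755 (edgeR p 0.0465, adjusted p 0.222). Its lowest sgTaz tumor was above 4 of the 5 sgCon tumors, and only sgCon tumor 1 reached into the sgTaz range. The unadjusted p of Mcm7 passed 0.05 only in the fits without sgCon tumor 1, sgCon tumor 3 or sgTaz tumor 5, and was at most 0.116 in the rest. Mcm2 was at 106.5, 86.7, 88.6, 91.0 and 88.1 CPM in sgCon tumors and 116.7, 82.9, 91.2, 93.5 and 99.3 CPM in sgTaz tumors, with a difference of 0.07 ± 0.097 (edgeR adjusted p 0.707). Tumor 1 was the highest of its group in both, and the rest overlapped. Without sgTaz tumor 1 the difference of Mcm2 was -0.0066. Over Mcm2 to Mcm7 the differences ran from -0.02 for Mcm5 to 0.17 for Mcm7. Their summed level was 593.6 to 764.0 CPM in sgCon tumors and 614.8 to 769.6 CPM in sgTaz tumors, and the ranges overlapped almost entirely. Per kilobase of exon the 6 subunits had mean levels of 13.6 CPM for Mcm2 to 29.1 CPM for Mcm7. Here and below, the length of a gene is that of all its annotated exons merged. Levels, ranks and shares compared between genes depend on that length. Of the other licensing genes, Orc6, a subunit of the origin recognition complex, had the lowest difference, -0.21 ± 0.1 (edgeR adjusted p 0.255), Orc1 had 0.20 ± 0.145 and the helicase loader Cdt1 had -0.10 ± 0.0916.

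Among the 6 genes of helicase activation, Cdc45 passed the unadjusted threshold. It encodes the protein that joins the Mcm ring and the GINS complex in the active helicase. It was at 25.9, 25.6, 25.2, 22.8 and 26.2 CPM in sgCon tumors and 28.8, 33.8, 25.7, 31.6 and 27.9 CPM in sgTaz tumors. Only sgTaz tumor 3 was within the sgCon range, and the difference was 0.23 ± 0.0919 (edgeR p 0.0264, adjusted p 0.178). Without sgCon tumor 4, sgTaz tumor 2 or sgTaz tumor 4 it no longer passed, with an unadjusted p of at most 0.0697. Its partners in GINS did not share a direction. Gins1 had a difference of 0.23 ± 0.131, Gins2 -0.0028 ± 0.105, Gins3 -0.15 ± 0.159 and Gins4 -0.10 ± 0.0933, with edgeR adjusted p-values of 0.328 to 0.992. Mcm10, which helps to open the helicase, had -0.02 ± 0.116.

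The sliding clamp and its loader held no gene past the unadjusted edgeR threshold, while with limma-voom Rfc2 (unadjusted p 0.0216, adjusted p 0.101) and Rfc3 (unadjusted p 0.0104, adjusted p 0.0697) were lower. Pcna, the clamp itself and a common marker of dividing cells, was at 226.3, 214.6, 210.8, 228.4 and 192.2 CPM in sgCon tumors and 226.7, 188.0, 209.9, 218.3 and 202.2 CPM in sgTaz tumors. The groups covered nearly the same range, 214.4 ± 14.5 against 209.0 ± 14.9 CPM (SD, n = 5 each). The difference of -0.04 ± 0.0729 had an edgeR adjusted p of 0.797. Of the clamp loader, Rfc2 had -0.19 ± 0.093 and Rfc3 -0.20 ± 0.1, while Rfc4 had 0.16 ± 0.0883 and Rfc5 0.08 ± 0.118. The subunits of the loader, which act as 1 complex, thus had differences of both signs. Some of their exon bases are shared with genes on the other strand, and the strand setting of the counting is not stated. The share was 15.1% for Rfc2 (with Lat2), 12.65% for Rfc4 (with Eif4a2) and 10.69% for Rfc5 (with Wsb2). The adjusted p of Rfc2 ran from 0.101 to 0.514 over the alternatives and that of Rfc3 from 0.0697 to 0.638.

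Of the 6 polymerase and primase genes, Pole stood out. Pole, on chr5:110286306-110337474 (mm10), encodes the catalytic subunit of DNA polymerase epsilon, which copies the leading strand. It was at 34.7, 30.6, 33.9, 28.0 and 31.7 CPM in sgCon tumors and 53.3, 36.6, 42.0, 42.6 and 38.0 CPM in sgTaz tumors. Every sgTaz tumor was above every sgCon tumor, with tumor 1 the highest of both groups. The difference was 0.42 ± 0.111, the largest upward one of the 50 genes, with an edgeR p of 0.00279 and an adjusted p of 0.0983. The adjusted p was 0.015 with DESeq2 and 0.028 with limma-voom and ran from 0.015 to 0.233 over the alternatives, and without sgTaz tumor 1 the difference was 0.33. Another subunit of the same polymerase, Pole2, had 0.11 ± 0.131, and its groups overlapped. Pole3 and Pole4, further subunits of it that are not among the 50 genes, had -0.19 ± 0.0914 and -0.10 ± 0.0873, and their groups overlapped too. Pola1 and Pola2, of the polymerase that starts each strand with primase, had 0.11 ± 0.194 and -0.17 ± 0.102, Prim1 had 0.04 ± 0.0969, and Pold1, of the lagging-strand polymerase, had -0.14 ± 0.108. The level of Pole per kilobase of exon, 3.33 CPM, was 47th of the 50 genes in order.

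Okazaki fragments, the short pieces of the lagging strand, are trimmed by Fen1 and joined by Lig1. Fen1 had a difference of -0.16 ± 0.0885 and Lig1 of -0.0016 ± 0.0999. Neither passed the threshold. Reads of Fen1 are uncertain, since 78.8% of its exon bases also lie in exons of the antisense gene Gm10143 and the strand setting of the counting is not stated. The same holds for Gins2, with 67.3% shared with Gse1 on the other strand, and for Chaf1a, with 52.5% shared with Ubxn6.

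All 4 genes of deoxynucleotide supply had differences above 0, with a median of 0.21, and Rrm1 and Tyms passed the unadjusted threshold. Rrm1, the large subunit of ribonucleotide reductase, was at 106.8, 104.8, 103.1, 91.2 and 99.6 CPM in sgCon tumors and 137.0, 96.7, 123.4, 139.4 and 118.0 CPM in sgTaz tumors. In 4 sgTaz tumors it was above all sgCon tumors, and sgTaz tumor 2 was inside the sgCon range. It was higher by 0.28 ± 0.098 (edgeR p 0.0147, adjusted p 0.147). Limma-voom gave an adjusted p of 0.0462, and the range over the alternatives was 0.0462 to 0.366.

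Rrm2, the small subunit of the same enzyme and its cell cycle-regulated part, was at 53.6, 52.8, 66.9, 42.7 and 57.7 CPM in sgCon tumors and 81.2, 57.1, 62.0, 55.2 and 56.9 CPM in sgTaz tumors. The groups overlapped in all but sgTaz tumor 1. The difference of 0.19 ± 0.135 had an edgeR adjusted p of 0.426, and without sgTaz tumor 1 it was 0.08. Tyms, which makes thymidylate, was at 39.8, 40.9, 34.2, 41.1 and 36.8 CPM in sgCon tumors and 55.0, 40.6, 44.7, 47.3 and 39.1 CPM in sgTaz tumors. Of the sgTaz tumors, 3 were above all sgCon tumors, and the difference was 0.23 ± 0.103 (edgeR p 0.0444, adjusted p 0.219). Without sgTaz tumor 1 it was 0.15, with an unadjusted p of 0.123, and it also missed 0.05 without sgCon tumor 1, 3 or 5 or sgTaz tumor 3 or 4. Tk1, the S phase thymidine kinase, had 0.01 ± 0.0855.

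The 3 genes of chromatin copying, the histone chaperone subunits Chaf1a and Chaf1b and the DNA methylation factor Uhrf1, had differences of 0.09, 0.16 and 0.10. Their edgeR adjusted p-values were 0.434 to 0.639. None passed the threshold.

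**Figure D2:**
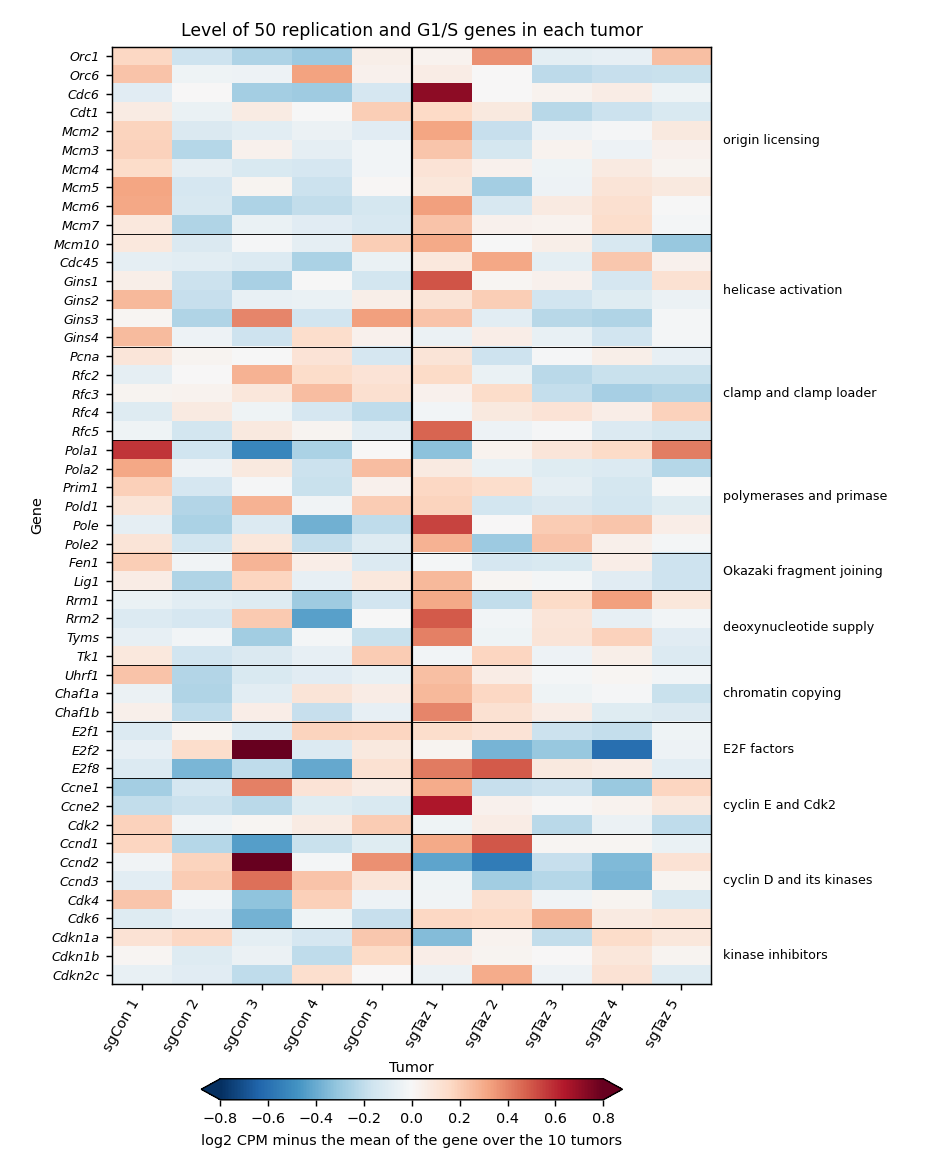
Log2 CPM of each of the 50 genes (rows, by role) in each of the 10 tumors (columns), minus the mean of that gene over the 10 tumors; red is above the mean and blue below, and colors end at 0.8 in size. The column of sgTaz tumor 1 is red over most machinery rows, and sgCon tumor 3 is darkest in E2f2 and Ccnd2.

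The E2F factors differed in direction. E2f1, an activator of S phase genes, was at 34.9, 38.2, 34.9, 42.6 and 42.5 CPM in sgCon tumors and 41.7, 40.7, 33.5, 33.02 and 36.8 CPM in sgTaz tumors. The groups overlapped, with a difference of -0.06 ± 0.0986 (edgeR adjusted p 0.767). E2f8, a repressor that acts in late S phase, was at 47.0, 39.3, 44.0, 38.0 and 55.1 CPM in sgCon tumors and 67.6, 71.4, 53.5, 52.8 and 47.8 CPM in sgTaz tumors. Tumors 1 and 2 of sgTaz were above all others, and the other 3 were inside the sgCon range. E2f8 was higher by 0.39 ± 0.136 (edgeR p 0.0145, adjusted p 0.146), and the unadjusted p stayed at or below 0.0401 whichever tumor was left out. Its exons share 11.2% of their bases with Gm2788 on the other strand.

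E2f2, another activator, was at 11.8, 13.6, 29.6, 11.4 and 13.0 CPM in sgCon tumors and 12.5, 9.49, 9.96, 8.09 and 12.01 CPM in sgTaz tumors. The sgCon mean was set by tumor 3, whose value was more than that of any other tumor. Of the other 4 sgCon tumors, tumors 1 and 4 were inside the sgTaz range and tumors 2 and 5 just above it. E2f2 was lower by 0.61 ± 0.265 (edgeR p 0.0425, adjusted p 0.213). Without sgCon tumor 3 the difference was -0.25, with an unadjusted p of 0.116, and E2f2 also missed 0.05 without sgTaz tumor 2, 3 or 4. Per kilobase of exon E2f2 had the lowest level of the 50 genes, 2.69 CPM.

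Cyclin E and its kinase also differed in direction. Ccne2 was at 13.0, 13.2, 12.8, 13.9 and 13.7 CPM in sgCon tumors and 23.4, 15.2, 15.0, 15.2 and 15.8 CPM in sgTaz tumors. All sgTaz tumors were above all sgCon tumors, and both groups were tight apart from sgTaz tumor 1. It was higher by 0.35 ± 0.136 (edgeR p 0.0268, adjusted p 0.179), and without sgTaz tumor 1 by 0.20, with an unadjusted p of 0.0572. Of its exon bases 17.4% are shared with Ints8 on the other strand. Ccne1, the other cyclin E gene, was at 6.91, 7.61, 11.1, 9.05 and 8.77 CPM in sgCon tumors and 10.3, 7.36, 7.45, 6.80 and 9.46 CPM in sgTaz tumors. Its groups overlapped, and the difference was -0.07 ± 0.172 (edgeR adjusted p 0.845). Cdk2, the kinase both cyclins activate, was at 73.9, 63.6, 65.7, 68 and 74.8 CPM in sgCon tumors and 63.3, 67.7, 55.9, 62.7 and 56.4 CPM in sgTaz tumors. Only sgTaz tumor 2 was inside the sgCon range, and Cdk2 was lower by 0.18 ± 0.079 (edgeR p 0.0462, adjusted p 0.222). The unadjusted p of Cdk2 passed 0.05 only in the fits without sgCon tumor 2, sgCon tumor 3 or sgTaz tumor 2, and was at most 0.116 in the rest.

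The cyclin D genes differed in direction too. Ccnd1, the cyclin D of most epithelial cells, had the highest level of the 50 genes per kilobase of exon, 182.5 CPM, against 88.2 CPM for Pcna, which was next. Ccnd1 was at 952.9, 722.3, 623.7, 746.9 and 790.7 CPM in sgCon tumors and 1042, 1192, 854.7, 853.2 and 814.5 CPM in sgTaz tumors. Every sgTaz tumor was above 4 of the 5 sgCon tumors, and sgCon tumor 1 was within the sgTaz range. The difference was 0.31 ± 0.135 (edgeR p 0.041, adjusted p 0.209). It missed 0.05, with an unadjusted p of at most 0.114, without sgCon tumor 2, 3, 4 or 5 or sgTaz tumor 1 or 2. Exons of Ccnd1 share 23.4% of their bases with LTO1 on the other strand.

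Ccnd2, on chr6:127125162-127152193, a cyclin D known from lymphocytes and other cells, was at 92.7, 107.3, 176.1, 93.7 and 122.2 CPM in sgCon tumors and 70.7, 64.3, 83.3, 74.1 and 102.4 CPM in sgTaz tumors. Only sgTaz tumor 5 reached the sgCon range. Ccnd2 was lower by 0.58 ± 0.185 (edgeR p 0.00874, adjusted p 0.125), and DESeq2 gave an adjusted p of 0.0448 within a range of 0.0448 to 0.263 over the alternatives. Without sgCon tumor 3 the difference was -0.39, with an unadjusted p of 0.0136.

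Ccnd3, on chr17:47505051-47599691 with the window of 1 of its 2 promoters printed above, is the cyclin D of many blood cells. It was at 100.6, 122.6, 144.9, 124.9 and 113.9 CPM in sgCon tumors and 104.3, 87.9, 91.0, 83.0 and 108.6 CPM in sgTaz tumors. Tumor 3 was again the highest sgCon tumor, and sgTaz tumors 1 and 5 were above sgCon tumor 1. Ccnd3 was lower by 0.35 ± 0.107 (edgeR p 0.00668, adjusted p 0.115). Limma-voom gave an adjusted p of 0.0428, the alternatives ran from 0.0428 to 0.301, and without sgCon tumor 3 the difference was -0.28.

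As a share of the 3 cyclin D genes per kilobase of exon, Ccnd1 made up 79.0% to 90.5% in sgCon tumors and 88.2% to 93.8% in sgTaz tumors, with means of 85.7 ± 4.18% and 91.1 ± 2.06% (SD, n = 5 each). Ccnd2 made up 4.40% to 11.2% and 2.53% to 5.54%. The ranges of both shares overlapped.

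The kinases of cyclin D were Cdk4 and Cdk6. Cdk6, on chr5:3341485-3531008, was at 114.6, 117.9, 94.6, 120.0 and 108.2 CPM in sgCon tumors and 138.0, 137.3, 150.3, 129.7 and 131.0 CPM in sgTaz tumors. The lowest sgTaz tumor was above the highest sgCon tumor. Cdk6 was higher by 0.31 ± 0.0773, with the smallest unadjusted p of the 50 genes (edgeR p 0.00211, adjusted p 0.096). DESeq2 gave an adjusted p of 0.0116 and limma-voom 0.0317, the alternatives ran from 0.0116 to 0.326, and no tumor left out moved the unadjusted p above 0.00738. Cdk4, 85.4 CPM per kilobase of exon against 8.88 for Cdk6, had a difference of -0.02 ± 0.101 (edgeR adjusted p 0.923). Cdk6 made up 7.62% to 9.16% of the 2 kinases per kilobase in sgCon tumors and 9.55% to 11.4% in sgTaz tumors. Of the exon bases of Cdk4, 19.7% are shared with Tspan31 on the other strand.

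**Figure D3:**
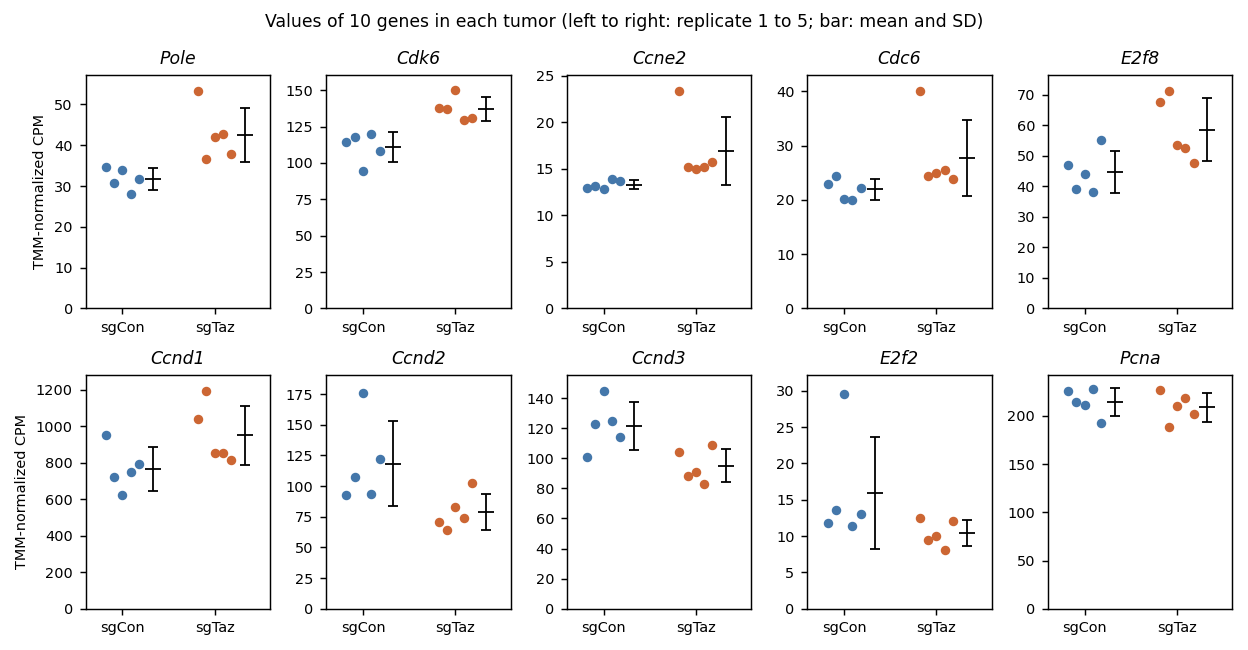
CPM of 10 genes in each tumor, sgCon on the left and sgTaz on the right of each panel, with tumors 1 to 5 from left to right and a bar for the mean and SD (n = 5 each). Pole, Cdk6 and Ccne2 do not overlap between groups, sgTaz tumor 1 leads Pole, Ccne2 and Cdc6, sgCon tumor 3 leads Ccnd2, Ccnd3 and E2f2, and Pcna covers the same range in both groups.

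The kinase inhibitors showed no difference past the threshold. Cdkn1a, the p53-induced inhibitor p21, was at 44.0, 45.5, 38.4, 37.0 and 47.1 CPM in sgCon tumors and 31.8, 41.3, 35.4, 44.9 and 43.3 CPM in sgTaz tumors. The groups overlapped, with a difference of -0.11 ± 0.113 (edgeR adjusted p 0.607). Cdkn1b, the inhibitor p27, had 0.07 ± 0.0707 and Cdkn2c, an inhibitor of Cdk4 and Cdk6, had 0.09 ± 0.0913.

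**Figure D4:**
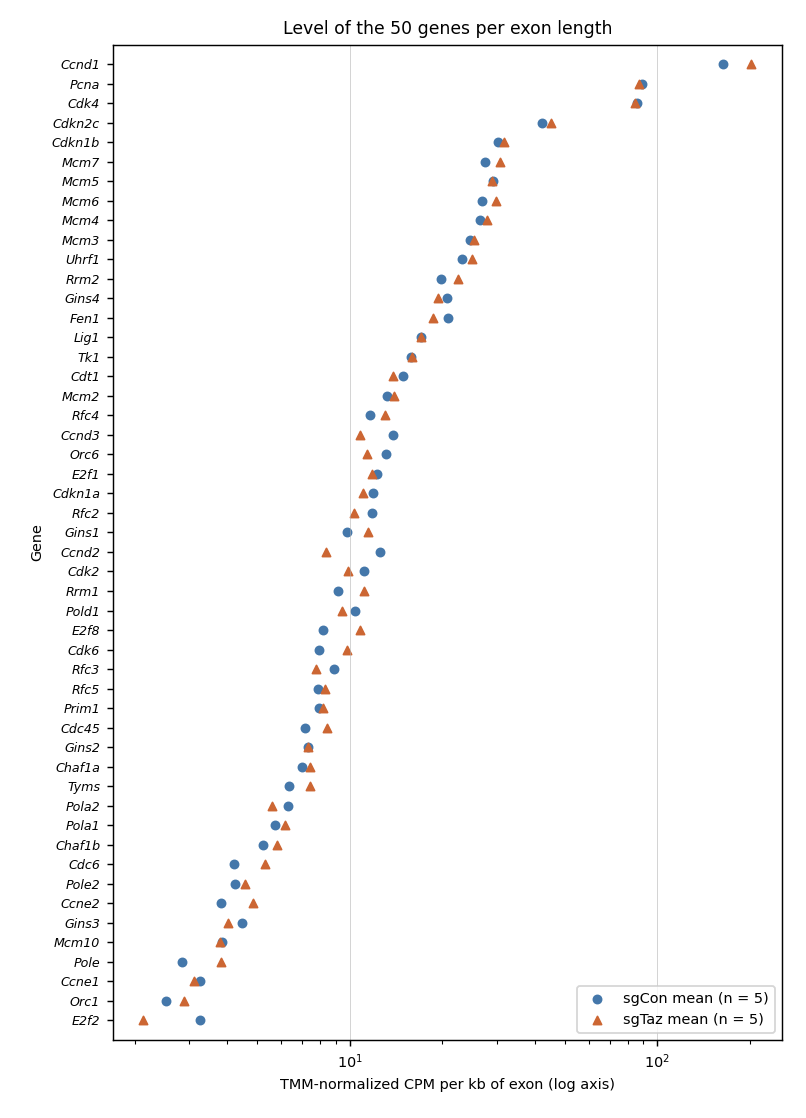
Mean CPM per kilobase of exon of each of the 50 genes in sgCon (circles) and sgTaz tumors (triangles), on a log axis, in order of the mean over all tumors. Ccnd1 at 182.5 is highest and E2f2 at 2.69 lowest, and in most genes the 2 groups lie side by side.

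The promoters with E2F-type letters were spread over genes of every direction. Such letters were found in 4 of the 7 genes with a promoter that were higher at an unadjusted p below 0.05 (Cdc6, E2f8, Mcm7 and Rrm1), 2 of the 3 that were lower (Cdk2 and E2f2) and 18 of the 31 that did not pass. Among those 18 were Mcm5, Mcm6 and Pola1, whose windows are printed above and whose log2 differences were -0.02 ± 0.106, 0.15 ± 0.118 and 0.11 ± 0.194. Genes with these letters thus lay in both directions and among those that did not pass.

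Individual tumors differed more than the groups did. For each tumor the deviation of the 36 machinery genes from their own means over the 10 tumors was summarised by its median. It was 0.09, -0.13, -0.04, -0.08 and -0.01 in sgCon tumors and 0.20, 0.003, -0.02, -0.03 and -0.02 in sgTaz tumors on the log2 scale. Tumor 1 was the highest in both groups, and the other 4 sgTaz tumors were inside the sgCon range. The group means differed by 0.06, less than the SD of 0.09 within groups, and by 0.02 without sgTaz tumor 1. In sgTaz tumor 1, 31 of the 36 genes were above their own mean and 16 had their highest value of all tumors, against 26 and 7 in sgCon tumor 1, and in sgCon tumor 2 only 5 were above their mean. Epithelial markers ran from 2266 to 5137 CPM in sgCon tumors and from 1637 to 3977 CPM in sgTaz tumors, with 10 of 10 genes below 0 and 5 at an unadjusted p below 0.05. They summed to 1637 CPM in sgTaz tumor 1, the lowest of the 10 tumors, and to 5137 CPM in sgCon tumor 1, the highest. The part of tumor cell content in the replication levels was not tested.

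Markers of lymphocytes, neutrophils and epithelial cells had differences below 0, like Ccnd2, Ccnd3 and E2f2. Summed over 9 B cell markers the levels were 152.6, 231.0, 988.3, 72.9 and 455.5 CPM in sgCon tumors and 7.89, 7.56, 22.5, 12.3 and 230.3 CPM in sgTaz tumors. All 9 markers had differences below 0, 7 at an unadjusted edgeR p below 0.05 and 0 at an adjusted p below 0.05, and 4 of the 9 were at 0 in at least 1 tumor. Within sgTaz tumors the order of Ccnd2 was the order of the B cell markers, from tumor 2 through tumors 1, 4 and 3 to tumor 5. Within sgCon tumors the same held but for tumors 1 and 4, whose Ccnd2 values were nearly equal. Ccnd3 did not follow that order in either group, and E2f2 did not in sgTaz tumors and did in sgCon tumors but for tumors 2 and 5. That order was not particular to B cell markers. In sgCon tumors the summed T cell and lymph node stroma markers had the same order as the B cell markers. In sgTaz tumors lymph node stroma markers rose from tumor 2 through tumors 1, 3 and 4 to tumor 5. T cell markers there rose from tumor 4 through tumors 2, 3 and 1 to tumor 5. Orders of the other lists were not compared. The part of lymphocytes, lymph node stroma, neutrophils or epithelial cells in the levels of Ccnd2, Ccnd3 and E2f2 was not tested. T cell markers ran from 103.5 to 705.5 CPM in sgCon tumors and from 80.7 to 213.0 CPM in sgTaz tumors, with 7 of 7 genes below 0, and lymph node stroma markers from 35.2 to 699.9 CPM and from 1.55 to 349.8 CPM, with 4 of 4 tested below 0. Neutrophil markers lay at 167.7 to 694.5 CPM and 66.8 to 260.3 CPM, with 5 of 5 tested below 0 and 3 at an unadjusted edgeR p below 0.05. Macrophage markers were at 758.6 to 1787 CPM in sgCon tumors and 1478 to 2068 CPM in sgTaz tumors, with 8 of 8 genes above 0 and 5 at an unadjusted p below 0.05, in the direction of Cdk6 and Ccnd1. Their part in those values was not tested. Of the remaining lists, fibroblast markers covered 1502 to 4653 CPM in sgCon and 1687 to 4642 CPM in sgTaz tumors, endothelial markers 345.3 to 451.6 and 283.7 to 579.0 CPM, adipocyte markers 53.4 to 118.1 and 39.6 to 240.9 CPM, and skeletal muscle markers 11.0 to 53.6 and 7.29 to 32.1 CPM. In that order, 5 of 7, 5 of 6, 5 of 5 and 1 of 3 tested genes had differences above 0.

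**Figure D5:**
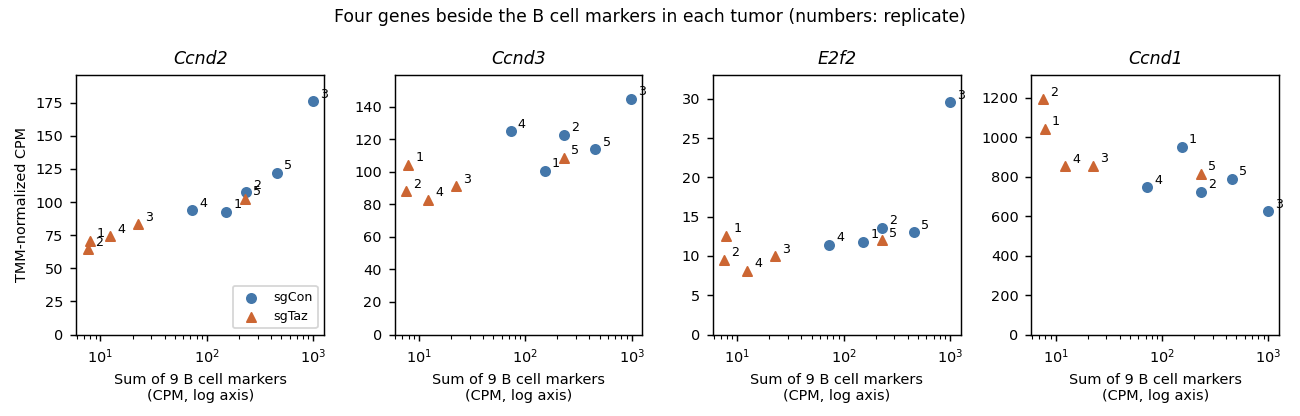
CPM of Ccnd2, Ccnd3, E2f2 and Ccnd1 (vertical axes, from 0) against the summed CPM of 9 B cell markers (log axis) in each tumor, circles for sgCon and triangles for sgTaz, numbered by replicate. Ccnd2 is lowest in the sgTaz tumors with the fewest B cell transcripts and highest in sgCon tumor 3, Ccnd3 and E2f2 are also highest there, and Ccnd1 has its lowest value in sgCon tumor 3.

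Of 68 other genes of the same processes, all tested, 7 were higher at an unadjusted p below 0.05 (10.3%, against 9.86% of all genes tested) and 2 were lower (2.94%, against 11.9%). None passed an edgeR adjusted p of 0.05. The median difference was 0.04, near that of the 50 genes. Those named here had an unadjusted p below 0.01. Top2a, the topoisomerase that untangles DNA in S and G2 phase, was at 530.7, 514.1, 469.1, 421.3 and 499.1 CPM in sgCon tumors and 905.0, 549.7, 689.5, 744.4 and 579.8 CPM in sgTaz tumors. It did not overlap between groups and was higher by 0.51 ± 0.132 (edgeR adjusted p 0.096, alternatives 0.00904 to 0.233). Tfdp2, a dimer partner of E2F factors, was at 26.4, 24.8, 27.4, 22.3 and 25.7 CPM in sgCon tumors and 33.7, 28.7, 36.6, 32.2 and 30.5 CPM in sgTaz tumors. It did not overlap either and was higher by 0.35 ± 0.0916 (edgeR adjusted p 0.096, alternatives 0.0122 to 0.278). Rnaseh2c, a subunit of the nuclease that removes ribonucleotides from DNA, was at 27.3, 23.4, 30.2, 31.9 and 32.0 CPM in sgCon tumors and 20.8, 23.3, 20.3, 18.5 and 25.03 CPM in sgTaz tumors. Its groups overlapped in sgTaz tumor 5 alone, and it was lower by 0.42 ± 0.117 (edgeR adjusted p 0.101, alternatives 0.0271 to 0.278).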

How the data were processed

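RNA of whole 4T1 tumors (5 sgCon, 5 sgTaz) was sequenced. Reads were aligned by the authors to mm10 with STAR and GENCODE annotation, passed through RSeQC, and assigned to genes by featureCounts. What was deposited is a table of raw counts, not normalized, for 17864 genes. Tool versions and the strand setting are not given in the sources used here. Another 5 columns of that table were left aside. Tumors were grouped by the labels, and no source says that tumors with the same number shared a litter or day. The labels number the tumors of a group apart, and no source used here says outright that each came from a separate mouse. The p-values thus set the group difference against the spread between these tumors, which was not split into biological and technical parts.

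Gene identifiers were matched to GENCODE M21 (17673 with version, 187 without, 4 not found). The main test was the quasi-likelihood test of edgeR 4.0.16 under R 4.3.3, after TMM scaling and the filterByExpr filter, which kept 14816 genes, with all 10 tumors in the fit and a threshold of 0.05 on the Benjamini-Hochberg adjusted p. Standard errors are the log2 difference divided by the square root of the F statistic. The study named DESeq2, which was run here as an alternative (DESeq2 1.42.0), with limma-voom (limma 3.58.1, weights per sample), scaling by RLE or the upper quartile, no filter, at least 10 counts in every tumor, each tumor left out, the replicate number as a block, and a correction for GC content and length. Log2 CPM used a prior count of 2 (alternative 0.5). Total counts put 3 counts, the floor of detection, at 0.15 to 0.243 CPM, for counting error only. No pair of tumors of a group was within sampling noise (chi-square over degrees of freedom 6.16 to 68.1). The fits were tested on simulated counts. Python 3.11.15, pandas 2.3.3 and matplotlib 3.10.9 were used for summaries and figures. The genes and lists were chosen with earlier results of these data known. Values in every tumor are given for Mcm2, Cdc6, Pcna, Rrm2, E2f1, Ccne1, Ccnd1 and Cdkn1a, for genes of the list with an unadjusted edgeR p below 0.05 or a DESeq2 adjusted p below 0.05, and for other pathway genes below an unadjusted p of 0.01. Of the marker lists, 1 is not reported here.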

Additional observations from a re-analysis of the deposited data

Results flagged for a closer look

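In groups of 5 tumors a gene was noted where the highest or lowest tumor was set apart from the nearest by more than 0.71 of the range of the group in log2 CPM. Over the 50 genes and both groups 100 groups were examined, 8 met this rule, and chance gives about 1 in 20, or 5. sgTaz tumor 1 accounted for 4 of the 8 and sgCon tumor 1 for 2. Cdc6 was at 5.33 in sgTaz tumor 1, Rfc5 at 5.70, Pold1 at 5.77 and Ccne2 at 4.56, all above the rest of the group. Mcm2 was at 6.74 and Mcm6 at 7.35 in sgCon tumor 1, both above the rest. Cdc45 was at 4.52 in sgCon tumor 4, below the rest, and E2f2 at 4.89 in sgCon tumor 3, above the rest.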

How the results depend on the processing

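With DESeq2 533 genes were higher and 537 lower at an adjusted p below 0.05, of the 50 genes 2 and 1. With limma-voom there were 686 and 860, of the 50 genes 3 and 1, and at an unadjusted p 6 of the 50 higher and 7 lower. With no filter 0 genes were higher (3610 at an unadjusted p below 0.05 in either direction), and with at least 10 counts in every tumor 4 were higher and 1 lower. With GC content and length as a correction 0 genes were higher (2767 unadjusted), and of the 50 genes 6 were higher and 2 lower unadjusted. With the replicate number as a block 0 genes were higher (2462 unadjusted), and of the 50 genes 5 were higher and 2 lower unadjusted; with the block and the GC and length correction these were 0 (2370), 5 and 2. Same-numbered tumors did not deviate together (r from -0.243 to 0.221, own number the best in 1 of 5), so the numbers were not taken as pairs.

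Leaving out each tumor in turn gave 0 to 42 genes higher and 0 to 130 lower, the most without sgTaz tumor 5 (42 and 130) and without sgTaz tumor 2 (40 and 35). For the 50 genes it gave 5 to 10 higher and 2 to 5 lower unadjusted (6.88% to 11.1% and 8.46% to 13.4% of all genes), 0 adjusted, and 3 to 8 with no overlap (5.06% to 10.8% of all genes). Of 665 alternatives for 35 single genes, 629 kept direction and side of the threshold, 14 newly passed it and 22, in 5 genes and at most 0.0738 in size, changed sign. Without a tumor Mcm2 was -0.0066 to 0.1271, the lowest without sgTaz tumor 1. Lig1 was 0.0122 with DESeq2, 0.0188 with limma-voom, 0.0116 with RLE, 0.0264 with no filter, 0.0738 with GC and length, 0.0674 with the replicate block too, and -0.071 to 0.0487 without a tumor. Tk1 was -0.0072 with limma-voom and -0.0278 to 0.0698 without a tumor. E2f1 was 0.0712 with GC and length and 0.0696 with the replicate block too, and Ccne1 0.0115 and 0.0068, and -0.1597 to 0.0386 without a tumor. The cause of these changes was not tested. With 5 tumors a group, differences near the median standard error of 0.102 were not detectable. Larger ones, such as 0.42 for Pole and 0.31 for Cdk6, also missed the edgeR adjusted threshold (adjusted p 0.0983 and 0.096).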
